A study of Mus musculus with 58 samples.

Results

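The genes described here are 47 genes of DNA replication and cell division, chosen by symbol from a list and matched by identifier to the rows of the count table. All 47 were among the 56953 genes of the table, and all 47 were among the 12464 genes with enough reads to test (at least 5 reads in more than 3 libraries). A cell that divides first licenses its replication origins and copies its DNA in S phase, and later condenses, aligns and separates its chromosomes in mitosis. E2F transcription factors drive the S phase genes, and the complex of B-MYB with FOXM1 drives many mitosis genes. Most stem cells of adult adipose tissue are at rest, and their division is one source of new preadipocytes.

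The genes were read from bulk RNA by Smart-seq3, which copies whole transcripts into cDNA, in 58 libraries of adipose stem cells (ASC) sorted from the inguinal white fat (iWAT) of C57BL6/J mice. The sort kept cells that were CD45-, CD31- and CD34+, and split them by surface DPP4 into ASC1 (DPP4-) and ASC2 (DPP4+). Surgery (castration of males, ovariectomy of females) was done when mice were 4 weeks old, which removes the gonads and with them all of their hormones at once, and all mice, controls included, were terminated at 10 weeks. ASC1 comprised 7 libraries labelled control male, 8 castrated male, 8 control female and 3 ovariectomized female (L4, N4 and P4), and ASC2 comprised 8 libraries of each. The experiment asks how sex hormones act on the transcripts of ASC. The labels do not tie a library to a mouse, so p-values measure the spread between libraries of a group.

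Libraries held from 106562 to 1421518 counts in total. Of the 3 ovariectomized ASC1 libraries, L4 was deep (1114321 counts), and N4 (256555) and P4 (188591) were shallow. Reads of 4 Y-chromosome genes and of Xist went against the sex label in 26 of 58 libraries, counted as at least 3 Y reads under a female label or at least 20 Xist reads under a male label. The study's methods take the Y-linked reads of control females as weak contamination with male mRNA and keep the labels. They cite counts of Sult1e1 and C7 that were low next to those of control males. The 26 included 19 control libraries, 5 of which were control female ASC1 and 6 control female ASC2. The 5 of control female ASC1 had 33 to 55 Y reads and 1 to 6 Xist reads. How these reads arose was not tested. Groups are therefore named by their labels, and results that rest on control libraries are also given without those 19. Summed over Pdgfra, Dcn, Lum, Col1a1 and Cd34, defining markers of ASC, the level was 3380 to 15878 CPM (counts scaled to a common library size) in 55 libraries and 44926 to 46771 CPM in the 3 ovariectomized ASC1 libraries. All 5 markers had reads in every group. Levels of 4 ASC2 markers (Dpp4, Pi16, Cd55, Anxa3) summed to 1075 to 7696 CPM in ASC2 and 303 to 582 CPM in ASC1. Levels of 4 ASC1 markers (Icam1, F3, Fabp4, Pparg) overlapped, with sums of 184 to 1051 CPM in ASC1 and 119 to 411 CPM in ASC2. Against its role, Pparg was higher in ASC2 of control and castrated males (log2 fold change 1.62 and 1.59). F3 was lower in ASC2 of control males (-1.21) and Icam1 in that of castrated males (-1.30). These values passed the test described below.

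In ASC1 of ovariectomized females 12 of the 47 genes had no read, while in every other group all 47 had reads. The summed level of the 47 genes was lowest in the same group. With library sizes scaled by TMM before CPM were taken, it was 544 CPM in L4, 436 CPM in N4 and 211 CPM in P4. In the 8 control female ASC1 libraries, the lowest, median and highest sums were 1855, 2190 and 5284 CPM. Every ovariectomized ASC1 library lay below every control, and also below the lowest of the 55 other libraries, which had 1172 CPM. As a share of all reads, the 47 genes took 0.0180% to 0.0427% in the 3 libraries and 0.1003% to 0.595% in the others. In bulk samples, fewer dividing cells and less RNA of these genes per cell cannot be told apart.

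**Figure D1:**
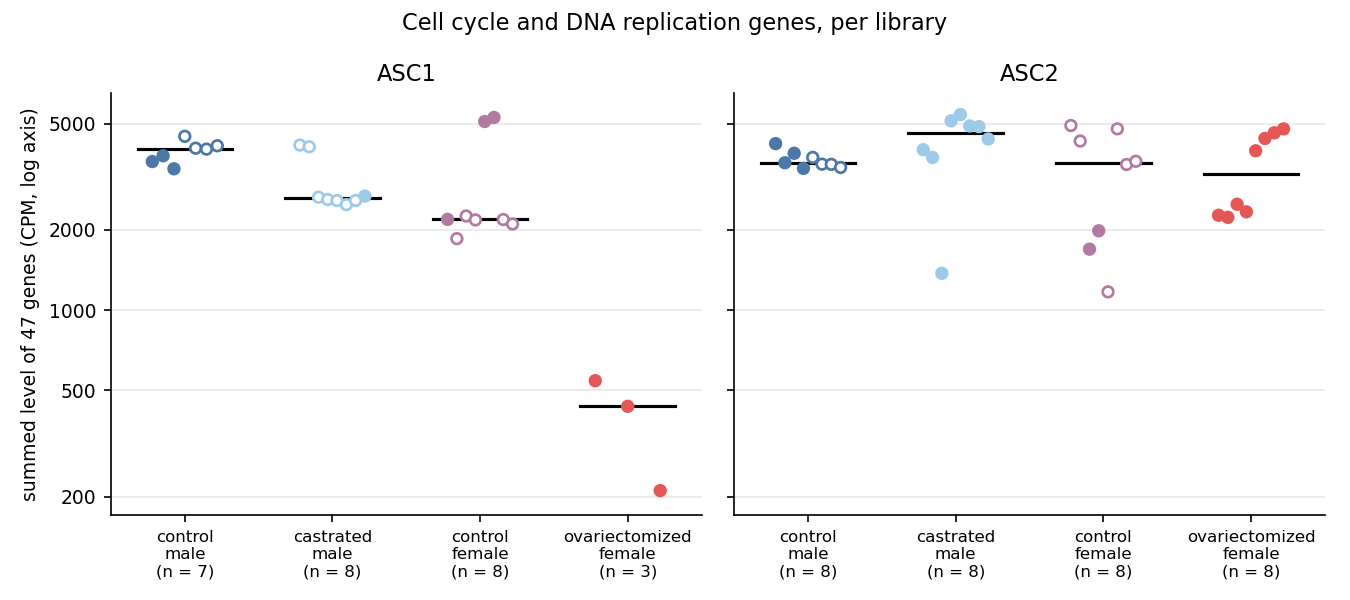
Summed level of the 47 genes in every library (y axis, CPM, log axis) by group, for ASC1 (left) and ASC2 (right). Each point is a library, in order of its letter, bars are medians, and open points are libraries whose sex-chromosome transcripts went against the label. The 3 ovariectomized ASC1 libraries lay between 211 and 544 CPM, below all 55 others.

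The other groups differed in how far their libraries spread. Control males were tight, with sums of 3392 to 4491 CPM in ASC1 and 3404 to 4216 CPM in ASC2, which is a coefficient of variation of 9.24% and 7.47%. Castrated male ASC1 had a median of 2628 CPM and a range of 2489 to 4164 CPM, where I2 and J2 had 4164 and 4104 CPM and the other 6 at most 2679 CPM. Castrated male ASC2 had the highest median, 4635 CPM, with 7 libraries between 3740 and 5419 CPM and K1 at 1376 CPM. Control female ASC2 ranged from 1172 CPM in E3 to 4929 CPM in A3, with a median of 3570 CPM. Ovariectomized female ASC2 ranged from 2230 to 4788 CPM with a median of 3230 CPM, where I3 to L3 had 2230 to 2497 CPM and M3 to P3 3964 to 4788 CPM.

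Control female ASC1 also held a split. The macrophage marker Lyz2 split with it, at 574 and 631 CPM in E4 and F4 and 1561 to 2956 CPM in the other libraries. Sex-chromosome reads went with it in part, and the part of either was not tested. E4 and F4, with 0 Y reads and 54 and 35 Xist reads, had sums of 5104 and 5284 CPM. The 5 libraries with 33 to 55 Y reads had 1855 to 2256 CPM, and A4, with 1 Y and 2 Xist reads, had 2191 CPM. In control female ASC2 the order was the other way for most libraries: C3 and D3, with 0 Y reads, had 1694 and 1986 CPM, and 5 of the 6 libraries with Y reads had 3521 to 4929 CPM. The sixth, E3, had 1172 CPM.

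In ASC1, 45 of the 47 genes fell in libraries labelled ovariectomized against control female and none rose (edgeR's quasi-likelihood test, adjusted p below 0.05 over all genes tested). The background was high: 34.8% of all genes tested passed in either direction, and 22.1% passed as lower. The 2 genes that did not pass were Mcm4, a subunit of the replicative helicase (log2 fold change -0.84, standard error 0.48, adjusted p = 0.169), and Nusap1, a spindle protein (-1.36, 0.56, adjusted p = 0.0507). All 47 log2 fold changes were below 0, against 7518 of 12464 genes in all. In each of 37 genes, all 3 libraries lay below all 8 controls, as was so for 13.1% of all genes tested. For 22 genes the 3 libraries lay below all 55 other libraries, as was so for 4.09% of all genes tested. Without the control libraries that went against their label, 46 genes were lower, and DESeq2 called 43.

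In the 3 libraries together, 12 of the 47 genes had no read, 12 had 1 to 3 reads and 23 had more. In L4, the deep library, 31 genes had a read, while every library outside this group had reads of at least 44 of the 47. L4 had few genes with a read for its depth, 11622 in all at 1114321 counts. Control male ASC2 library B1 had 14080 at 1095450 counts, and ovariectomized ASC2 library K3 had 15016 at 1118866. The study's filter on detected genes left 3 libraries in this group and 7 or 8 in each other group. The part of library quality in the missing reads was not tested. For the 12 genes at 0, a lower bound on the fold was taken as the mean CPM of controls over 3 counts in the 3 libraries together (2.39 CPM), which covers counting error only. For the 12 genes with 1 to 3 reads, the fold is the ratio of pooled reads per pooled library size, in which L4 weighs most, so it differs from a ratio of mean CPM. With these genes at their bound the median log2 fold change of the 47 was -2.96 (-4.19 as fitted), where the median of all genes tested was -0.34.

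Promoter sequences from RefSeq (GRCm38.p6) are shown for Ccnb1, Cdk1, Top2a and Aurka, which with Tpx2, Kif20a and Stmn1 had the smallest p-values, since these genes fell together and the motifs of their known regulators can be read there. Each window runs from 250 bases before the transcription start to 50 after it, 5′ to 3′ on the gene's strand, which is the minus strand for all 4. Capitals mark the E2F site (TTTCCCGC, TTTCGCGC, TTTGCCGC or TTTGGCGC), the CHR element (TTTGAA), which the B-MYB and FOXM1 complex reads, and the CCAAT box (CCAAT), which NF-Y binds, each on either strand. In these windows no motif shared bases with another. Ccnb1 is at chr13:100786437-100786736, Cdk1 at chr10:69352863-69353162, Top2a at chr11:99024140-99024439 and Aurka at chr2:172370521-172370820.
Ccnb1: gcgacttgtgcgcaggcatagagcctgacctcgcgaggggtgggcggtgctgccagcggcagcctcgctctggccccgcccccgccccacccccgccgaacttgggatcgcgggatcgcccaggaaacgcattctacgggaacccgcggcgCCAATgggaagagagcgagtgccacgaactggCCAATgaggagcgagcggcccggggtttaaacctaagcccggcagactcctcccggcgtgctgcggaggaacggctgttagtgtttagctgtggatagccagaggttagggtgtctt
Cdk1: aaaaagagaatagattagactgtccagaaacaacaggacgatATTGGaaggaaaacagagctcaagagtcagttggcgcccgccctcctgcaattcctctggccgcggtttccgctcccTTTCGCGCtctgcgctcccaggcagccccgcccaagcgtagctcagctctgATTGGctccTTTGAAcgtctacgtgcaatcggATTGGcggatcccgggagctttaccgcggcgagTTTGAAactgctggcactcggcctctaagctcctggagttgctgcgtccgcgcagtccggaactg
Top2a: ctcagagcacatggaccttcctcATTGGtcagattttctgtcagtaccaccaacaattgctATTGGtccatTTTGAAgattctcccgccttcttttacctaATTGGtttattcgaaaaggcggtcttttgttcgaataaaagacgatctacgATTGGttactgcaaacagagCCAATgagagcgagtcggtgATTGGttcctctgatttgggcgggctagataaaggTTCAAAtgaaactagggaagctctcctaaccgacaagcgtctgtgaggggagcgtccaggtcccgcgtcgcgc
Aurka: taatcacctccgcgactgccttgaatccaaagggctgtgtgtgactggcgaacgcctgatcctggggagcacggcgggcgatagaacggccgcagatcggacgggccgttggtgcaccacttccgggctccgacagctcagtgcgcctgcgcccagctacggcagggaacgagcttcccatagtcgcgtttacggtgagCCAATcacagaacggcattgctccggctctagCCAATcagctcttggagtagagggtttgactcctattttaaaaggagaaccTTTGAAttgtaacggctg
Cdk1 had all 3 motifs (1 E2F site, 2 CHR elements and 3 CCAAT boxes), Top2a had 2 CHR elements and 6 CCAAT boxes, Aurka had 1 and 2, and Ccnb1 had 2 CCAAT boxes alone. The table held 40 promoters for 38 of the 47 genes. An E2F site was in 20% of these and in 2.26% of all 32851 promoters of the same length, a CHR element in 45% and 17.9%, and a CCAAT box in 77.5% and 37.4%. Of the promoters of replication and of mitosis genes, E2F sites were in 6 of 14 and 0 of 15, CHR elements in 2 of 14 and 11 of 15, and CCAAT boxes in 10 of 14 and 13 of 15. A match is a run of letters and not a measured site.

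Mitosis genes gave the smallest p-values. Tpx2 (ENSMUSG00000027469.17), which activates Aurora A on the spindle, had 1.14 CPM in L4, from 1 read, and 0 in N4 and P4. In control female ASC1 it had 45.8, 60.7 and 144 CPM (lowest, median, highest). That is 104-fold lower in pooled reads with a 95% counting interval of 18.6 to 4136 (adjusted p = 3.72e-10). Kif20a (ENSMUSG00000003779.17), a kinesin of the late mitotic spindle, had 2.29, 0 and 0 CPM in L4, N4 and P4 against 41.1, 74.5 and 172 CPM, or 60.4-fold lower (interval 16.6 to 500.4, adjusted p = 2.32e-08). The groups did not overlap for either gene.

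The main kinase of mitotic entry and its cyclin fell as well. Ccnb1 (ENSMUSG00000041431.17), cyclin B1, had no read in L4, N4 or P4 and 52.5, 82.5 and 226 CPM in controls, so it was at least 46.3-fold lower (adjusted p = 5.41e-08). Cdk1 (ENSMUSG00000019942.14), the kinase that cyclin B1 activates, had 1.14, 0 and 12.4 CPM against 38.7, 81.4 and 238 CPM, or 47.9-fold lower (interval 16.3 to 233, adjusted p = 3.28e-07). All 3 libraries were below all controls for both genes. Ccnb2, the second B-type cyclin, had 2.29, 18.4 and 0 CPM against a lowest control of 19.7 CPM, and fell by 3.34 on the log2 scale (0.73, adjusted p = 2.47e-04). Ccna2, cyclin A2 of S phase and early mitosis, and Ccne1, cyclin E1 of S phase entry, had no reads and were at least 7.26-fold and 7.44-fold lower. Cdk2, the partner of cyclins E and A, had 16.0, 4.59 and 6.19 CPM against 13.1 to 40.1 CPM (-1.26, standard error 0.48, adjusted p = 0.0366).

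All 6 mitotic kinases and checkpoint genes fell. Aurka (ENSMUSG00000027496.16), Aurora A, which builds the spindle poles, had no read in the 3 libraries against 36.7, 43.1 and 188 CPM in controls, at least 30.9-fold lower (adjusted p = 1.16e-07). Birc5 (ENSMUSG00000017716.16), survivin of the chromosomal passenger complex, had no read against 13.1, 55.8 and 131 CPM, at least 26.4-fold lower (adjusted p = 1.03e-06). The groups did not overlap. Aurkb, the kinase of that complex, had 1 read in all, and Plk1, a kinase of spindle assembly and mitotic exit, had 3. The spindle checkpoint kinase Bub1 had no read, and its relative Bub1b had 8.

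The anaphase-promoting complex, the ubiquitin ligase that ends mitosis, was represented by its activator Cdc20 and its E2 enzyme Ube2c (ENSMUSG00000001403.14). Cdc20 had 1 read in the 3 libraries, in P4, against 44.5, 55.6 and 174 CPM in controls (adjusted p = 2.04e-06). Ube2c had 1 read, in N4, against 16.9, 50.9 and 134 CPM (adjusted p = 5.38e-06). Both were lower in each library than in any control. Of the centromere genes, Cenpa, the histone variant that marks the centromere, had 6.86, 4.59 and 0 CPM against a lowest control of 32.8 CPM, Cenpe, a kinetochore motor, had 1 read and Cenpf, a kinetochore protein, had none. Of the remaining spindle genes, Kif11, which separates the poles, had 1 read, and Prc1, a midzone bundler, and Kif23, a motor of cytokinesis, fell by 2.26 and 2.12 on the log2 scale (standard errors 0.58 and 0.70). Kif23 had 32.1 CPM in N4, from 7 reads, which lay inside the control range of 14.0 to 62.1 CPM.

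Chromosome structure genes fell with them. Top2a (ENSMUSG00000020914.18), the topoisomerase that untangles replicated chromosomes, had 5.71, 9.18 and 0 CPM in L4, N4 and P4 and 70.1, 91.7 and 187 CPM in controls (-4.27, standard error 0.60, adjusted p = 8.42e-08). Stmn1 (ENSMUSG00000028832.12), stathmin, which destabilizes microtubules, had 6.86, 22.9 and 0 CPM against 89.5, 108 and 165 CPM (-3.66, 0.49, adjusted p = 2.91e-08). Neither gene overlapped between the groups. Mki67, the Ki-67 antigen of cycling cells, had 2 reads in all against 26.7, 40.1 and 80.2 CPM. Smc2, a condensin subunit, had none, and its partner Smc4 fell by 1.49 (0.52, adjusted p = 0.0200). Brca1, a repair gene, had no read, but its controls were low as well (0 to 12.02 CPM), so the bound was 2.30-fold.

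Replication genes had smaller fold changes in the same libraries. Of the 11 genes of origin licensing and the replication fork, 10 fell. Pcna (ENSMUSG00000027342.15), the sliding clamp of the polymerases, had 81.1, 55.1 and 6.19 CPM in L4, N4 and P4 against 59.4, 93.6 and 176 CPM in controls (-0.99, standard error 0.34, adjusted p = 0.0187), and L4 lay within the control range. The helicase subunits Mcm2, Mcm3, Mcm5, Mcm6 and Mcm7 had log2 fold changes of -2.73 to -1.89. Mcm5 (ENSMUSG00000005410.7) had 26.3, 0 and 12.4 CPM against 54.5, 79.4 and 233 CPM, and Mcm6 (ENSMUSG00000026355.12) had 33.1, 4.59 and 12.4 CPM against 44.5, 61.9 and 153 CPM. These groups did not overlap. Mcm4 did, with 62.9 CPM in L4 and 0 in P4 against 29.0 to 120 CPM. Cdc45, which activates the helicase, had 2 reads. Its partner Gins2 fell by 2.96 (0.55). The licensing factor Cdt1 fell by 2.46 (0.73), and Cdc6, which loads the helicase, had no read and was at least 4.62-fold lower.

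Among nucleotide synthesis genes, Rrm1 (ENSMUSG00000030978.11), the large subunit of ribonucleotide reductase, had 74.3, 41.3 and 18.6 CPM against 78.7, 139 and 320 CPM (-1.76, 0.37, adjusted p = 1.41e-04). Tyms, thymidylate synthase, fell by 1.32 (0.35) and Rrm2, the small reductase subunit, by 3.42 (0.78). Tk1, thymidine kinase, had no read in the 3 libraries against 49.9 to 163 CPM, at least 35.9-fold lower. All 4 of these genes fell. Of the transcription factors, E2f1, which drives S phase genes, fell by 1.08 (0.38, adjusted p = 0.0236), Foxm1, which drives mitosis genes, had 2 reads against 23.7 to 62.1 CPM, and Mybl2, B-MYB, had none and was at least 3.21-fold lower.

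**Figure D2:**
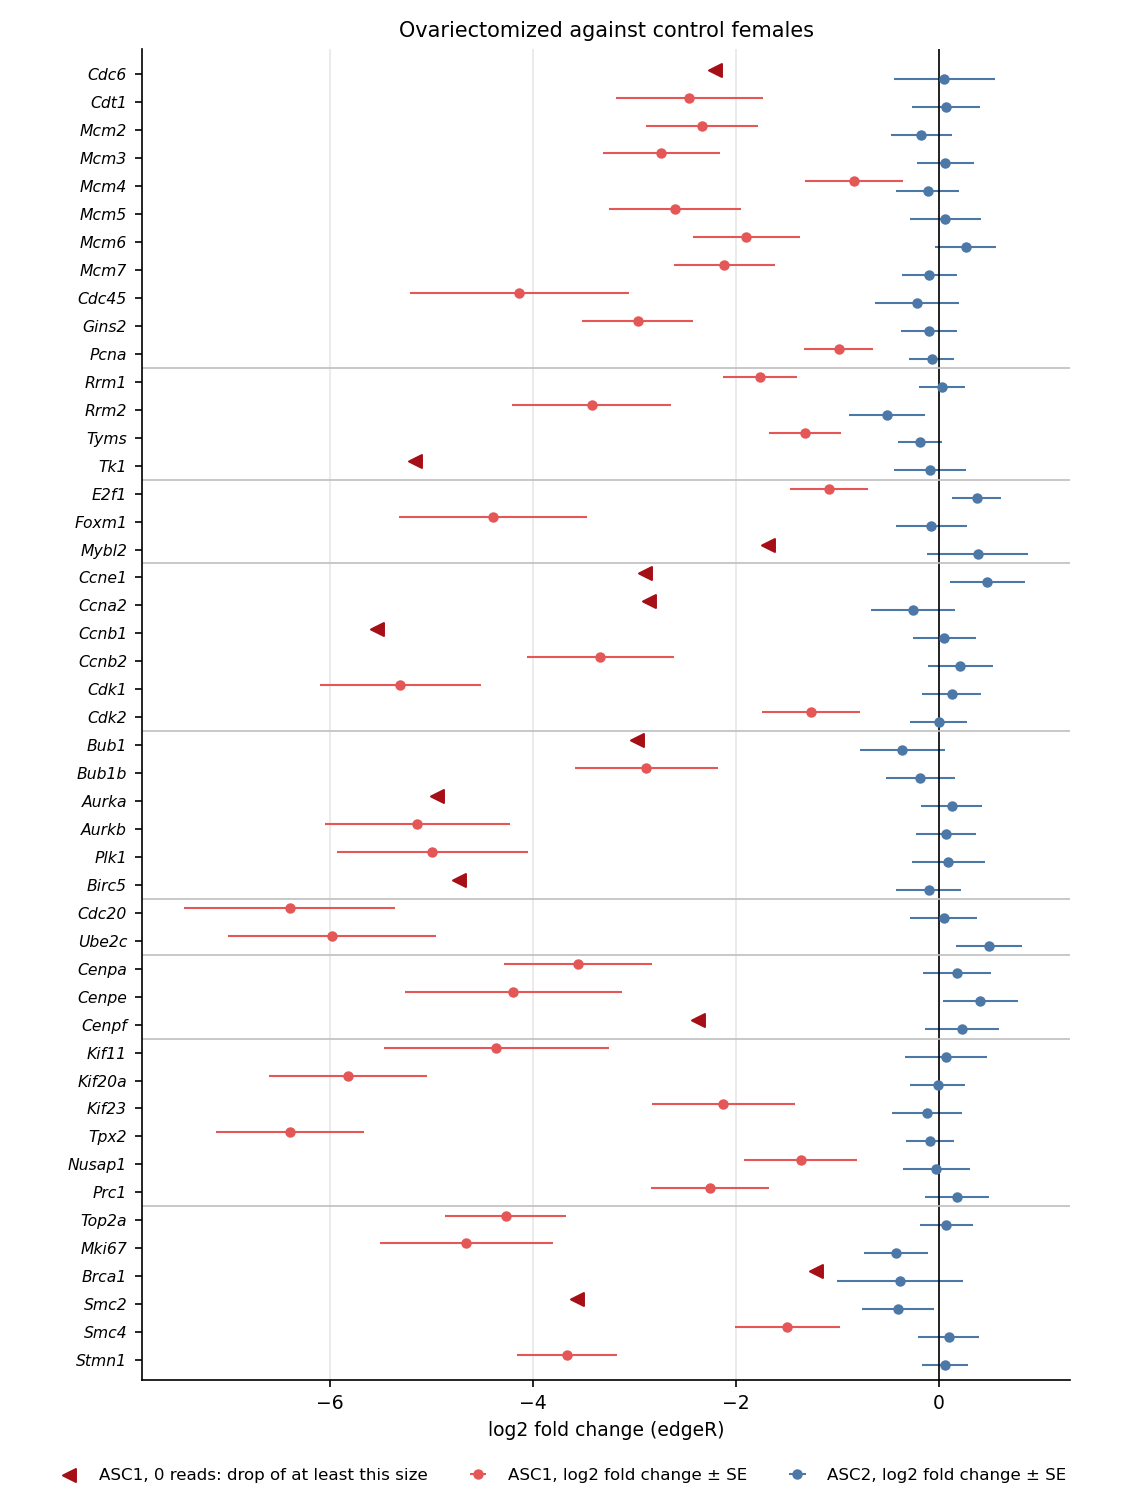
Log2 fold change of ovariectomized against control females (x axis) for each of the 47 genes (y axis), in ASC1 (red) and ASC2 (blue), as points with the standard error. Grey lines separate roles, from origin licensing at the top to chromosome structure at the bottom, and triangles mark the 12 genes without a read in ovariectomized ASC1, at the smallest fall that 3 counts allow. All ASC1 values lay below 0, and ASC2 values lay between -0.51 and 0.50.

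The balance of the phases differed as well. In 55 libraries, 17 mitosis genes (kinases, anaphase-promoting complex, centromere and spindle) summed to 28.4% to 96.6% of the level of 15 replication genes (licensing, fork and nucleotide synthesis), with a median of 65.9%. In L4, N4 and P4 the share was 15.7%, 26.5% and 18.2%, below all others. These libraries held 476, 95 and 34 reads of the 47 genes, so the shares of N4 and P4 rest on few reads. Their counting error was not computed, and N4 lay close to the lowest of the others. The lowest of the 55 were K1 of castrated male ASC2 with 28.4% and E3 of control female ASC2 with 38.8%, which also had the lowest sums of the 47 genes. With genes without a read at their bound, the median log2 fold change in ovariectomized ASC1 was -4.36 over the mitosis genes and -2.33 over the replication genes. No test was made of these medians.

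**Figure D3:**
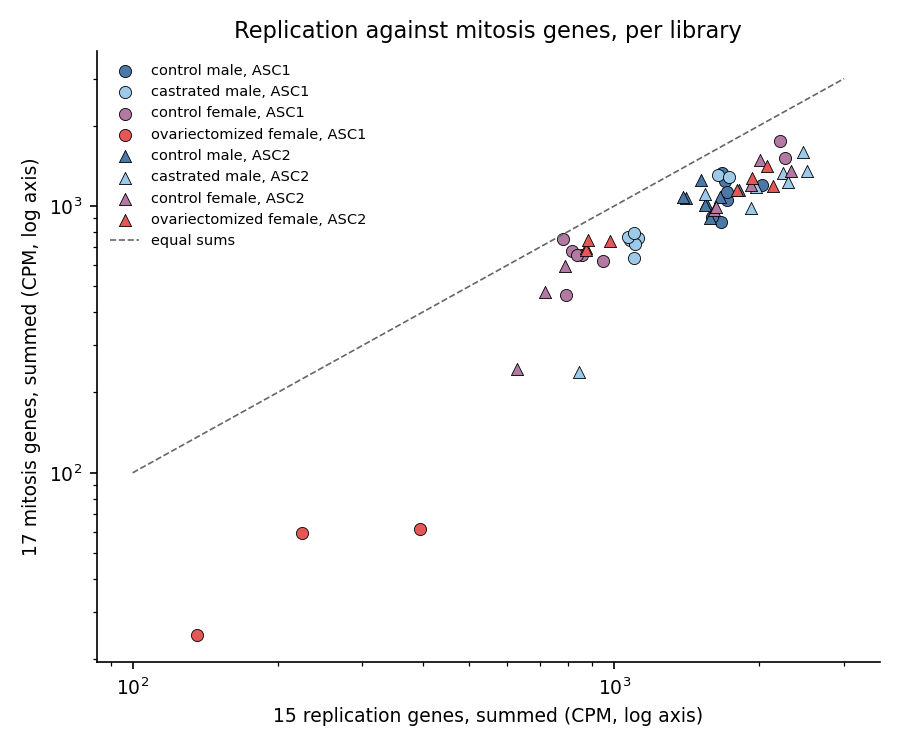
Summed level of 17 mitosis genes (y axis) against that of 15 replication genes (x axis) in each of the 58 libraries (CPM, both axes log). Circles are ASC1, triangles ASC2, and the dashed line marks equal sums. Ovariectomized ASC1 libraries (red circles) lay lowest on both axes and farthest below the line, at 15.7% to 26.5% of the replication sum.

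Other genes of the cell cycle moved the same way in ovariectomized ASC1. Of 81 further genes tested, 55 fell and 1 rose, with a median log2 fold change of -3.31. By part, 31 of 36 mitosis genes, 17 of 28 replication genes and 7 of 17 genes of G1 entry fell. The smallest p-values were those of Incenp and Cdca8 of the chromosomal passenger complex, the spindle protein Ckap2, the importin Kpna2 and Cdk4, the kinase of cyclin D. Cdk4 fell by 1.34 on the log2 scale (adjusted p = 2.19e-06), and Incenp, with 1 read in the 3 libraries, fell by 5.94 as fitted (adjusted p = 1.62e-07). The gene that rose was Pttg1, securin, with 55.7, 101 and 133 CPM (lowest, median, highest) against 25.7 to 41.1 CPM in controls. Of the 7 CDK inhibitors, Cdkn1b (p27) rose, by 1.72 (standard error 0.50, adjusted p = 0.00584), and Cdkn1a (p21), Cdkn2a and Cdkn2b fell, the last 2 without a read in the 3 libraries.

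Markers of other cells moved with this fall. Of 7 macrophage markers, 6 fell, and their summed level was 32.001 to 74.3 CPM in the 3 libraries against 671 to 3450 CPM in controls, with Adgre1 at 0. Of the 6 endothelial markers 4 fell (0 to 32.001 against 64.2 to 153 CPM, with Emcn at 0), and of 6 mural markers 1 fell and 2 rose (186 to 326 against 719 to 1462 CPM). All 6 mammary epithelium markers were at 0 reads, against a sum of 39.4 to 754 CPM in controls, and 3 of the 5 tested were called lower. Lymphocyte markers summed to 13.8 to 66.3 against 0 to 18.0 CPM, with 1 of the 2 tested called higher, and adipocyte markers to 0 to 8.0002 against 0 to 13.1 CPM. All 5 ASC markers rose. Of the ASC2 markers Pi16 and Cd55 rose and Anxa3 fell, and of the ASC1 markers Fabp4 rose. Xist rose, and the Y-linked Ddx3y and Eif2s3y fell. The number of genes with a read was 9122 to 11622 against 10496 to 14385. The part of each in the fall of the 47 genes was not tested.

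In ASC2, none of the 47 genes passed the test after ovariectomy (edgeR; 2.09% of all genes tested did), none had an unadjusted p below 0.05, and DESeq2 called none. The log2 fold changes lay between -0.51 for Rrm2 (standard error 0.38) and 0.50 for Ube2c (0.33), with a median of 0.05. Ccnb1 had 60.8, 131 and 317 CPM in ovariectomized and 31.7, 156 and 228 CPM in control female ASC2 (lowest, median, highest). Top2a had 73.9, 102 and 163 against 36.4, 104 and 154 CPM. The groups overlapped for both genes. In the same comparison all 5 mammary epithelium markers tested rose, with a summed level of 9.88 to 1105 against 6.37 to 42.8 CPM. Of 5 ASC markers 3 fell (4274 to 9512 against 4405 to 15878 CPM). Of 4 ASC2 markers 3 fell, and of 4 ASC1 markers 2 fell. Of 6 mural markers 1 rose, and of 5 sex-chromosome genes 3 fell. The part of these in the result for the 47 genes was not tested.

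The difference between both ovariectomy effects was tested as a contrast of its own, added after the effects had been seen. It passed for 42 of the 47 genes, in each with the ASC2 effect above the ASC1 effect (34.8% of all genes passed, and 22.1% in that direction). Within ovariectomized females, 43 genes were higher in ASC2 than in ASC1, and none was lower (35.4% of all genes passed, and 22.5% as higher). Tpx2 had 52.8, 81.4 and 115 CPM in the 8 ASC2 libraries against at most 1.14 CPM in ASC1, and Cdk1 had 82.3, 130 and 231 CPM against at most 12.4 CPM. With genes without a read at their bound, the median log2 fold change over the 47 was 3.29. These comparisons share the 3 ovariectomized ASC1 libraries with the one above and are not independent of it. In the contrast of both effects, 4 of 5 ASC markers passed as lower. As higher passed 6 of 7 macrophage markers and all 5 mammary epithelium markers tested, and the part of these was not tested.

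Few genes passed the test after castration. In ASC2, 2 genes rose and none fell (6.96% of all genes tested passed, and 2.65% as higher). Cdt1 (ENSMUSG00000006585.4), which licenses origins once per cycle, had 28.0, 47.3 and 83.8 CPM in castrated and 0, 22.2 and 32.05 CPM in control males (log2 fold change 1.26, standard error 0.33, adjusted p = 0.0110). Ccne1 (ENSMUSG00000002068.17), cyclin E1, had 7.65, 33.2 and 46.3 against 0, 14.2 and 23.4 CPM (1.17, 0.37, adjusted p = 0.0438). Both genes overlapped between the groups, and no gene was called in all 9 fits of this comparison. A count of 2 of 47 is near the share of all genes. Mcm6 was next, with 53.7, 119 and 162 against 14.8, 55.6 and 96.0 CPM (0.88, 0.30, adjusted p = 0.0590).

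All 11 licensing and fork genes had log2 fold changes above 0 in castrated ASC2, with a median of 0.42, while the median of the 47 genes was 0.14 and that of all genes 0.00. The 6 spindle and cytokinesis genes had a median of -0.07. Without the control libraries that went against their label, 4 genes passed, the 2 above with Mcm6 and Cdc20. DESeq2 called 3, with Mcm6. In a fit of the 2 groups alone no gene passed, with an adjusted p of 0.0591 for Cdt1. Without K1, whose sum was lowest, 3 passed. Among other cell cycle genes, Dut, which keeps uracil out of DNA, rose by 1.29 (adjusted p = 0.0304), and of the CDK inhibitors Cdkn1b fell by 1.396 (adjusted p = 0.0251). Of 7 macrophage markers 3 rose in the same comparison, with a summed level of 1371 to 6605 against 719 to 2000 CPM, of 6 endothelial markers 3 rose (60.7 to 152 against 14.8 to 63.6 CPM), and of 5 ASC markers 1 fell (3380 to 7696 against 7738 to 12759 CPM). The lymphocyte marker Cd79a and the mural markers Kcnj8 and Notch3 rose, and mural Rgs5, the ASC2 marker Anxa3 and Xist fell. The part of these in the 2 calls was not tested.

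In ASC1, none of the 47 genes passed after castration (edgeR; 2.36% of all genes tested did), 5 had an unadjusted p below 0.05, and DESeq2 called none. Of the 47 log2 fold changes, 44 were below 0, with a median of -0.40, against a median of -0.01 over all genes tested. Cdc6 (ENSMUSG00000017499.16) had the smallest p, with 0, 5.77 and 28.7 CPM in castrated and 15.3, 21.3 and 29.5 CPM in control males (-1.33, standard error 0.51, adjusted p = 0.188). All 8 castrated libraries had at least 13 Xist reads and none had more than 4 Y reads, against their male label. In the same comparison 4 of 7 macrophage markers and 2 of 5 ASC markers fell (summed levels 623 to 932 against 566 to 6476 CPM, and 4327 to 5807 against 5482 to 8175 CPM), whose part was not tested. Of the 5 sex-chromosome genes 2 fell as well. In a fit of the 2 groups alone, Mcm4, Mcm5 and Rrm1 passed as lower.

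The castration effect thus had a higher value in ASC2 than in ASC1 for 44 of 47 genes, with a median difference of 0.59 on the log2 scale, but the difference passed for none (edgeR; 2.41% of all genes tested passed), and DESeq2 called none. Of all 12464 genes tested, 6259 had a difference above 0. An unadjusted p below 0.05 was found for 11 of the 47 genes, with the smallest for Cdt1 (1.35, standard error 0.47, adjusted p = 0.112), Mcm6 (1.20, 0.43, 0.122) and Pcna (0.86, 0.31, 0.129). All 7 macrophage markers passed in the same contrast, with higher values in ASC2, as did 3 of the 5 sex-chromosome genes (2 higher, 1 lower), and their part was not tested.

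**Figure D4:**
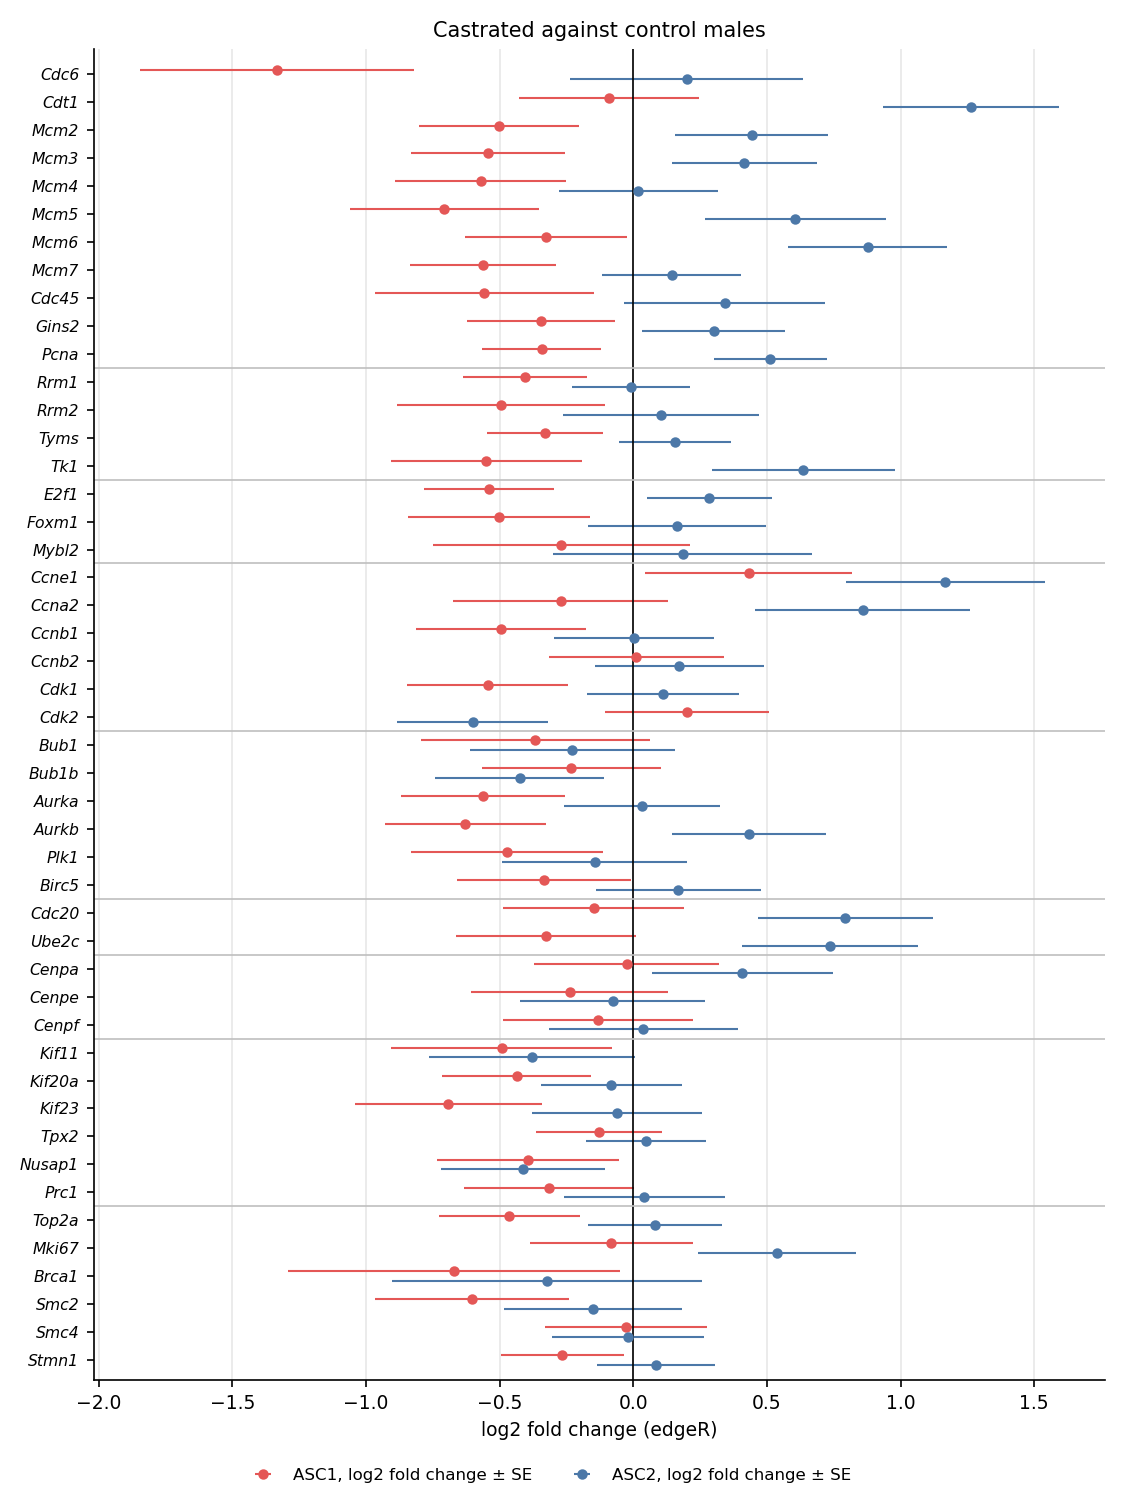
Log2 fold change of castrated against control males (x axis) for each of the 47 genes (y axis), in ASC1 (red) and ASC2 (blue), as points with the standard error, with grey lines between roles as in the plot for ovariectomy. In ASC1, 44 of 47 values lay below 0, and in ASC2 34 lay above it, with Cdt1 and Ccne1 past the test.

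Within castrated males, 3 genes of origin licensing and the replication fork were higher in ASC2 than in ASC1, and none was lower (9.09% of all genes tested passed, and 4.47% as higher). A count of 3 of 47 is near the share of all genes. Mcm3 (ENSMUSG00000041859.11) had 78.4, 173 and 206 CPM in ASC2 and 60.2, 72.6 and 135 CPM in ASC1 (log2 fold change 0.98, standard error 0.28, adjusted p = 0.0160). Cdc6 had 8.71, 26.003 and 42.2 against 0, 5.77 and 28.7 CPM (1.65, 0.50, adjusted p = 0.0243). Pcna had 141, 202 and 236 against 81.3, 118 and 169 CPM (0.69, 0.22, adjusted p = 0.0315). The medians stood apart and the ranges overlapped for all 3 genes. Of the 47 genes, 42 had a value above 0, with a median of 0.45, against 6364 of 12464 genes tested and a median of 0.01.

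In castrated males the sort coincided with the sex-chromosome transcripts. All 8 ASC1 libraries had 13 to 97 Xist reads and 0 to 4 Y reads, and all 8 ASC2 libraries had 0 to 5 Xist reads and 21 to 75 Y reads. Xist was lower in ASC2 (-5.52, adjusted p = 2.76e-05), and the Y-linked Ddx3y, Eif2s3y, Kdm5d and Uty were higher, by 3.99 to 5.46. The difference between ASC2 and ASC1 and the difference in these transcripts cannot be told apart here.

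Without K1, 9 genes passed in that comparison, now with Rrm1, Ccnb1, Top2a, Mcm5, Smc2 and Tk1. Without the 13 libraries that held reads of both sexes (at least 3 Y and 20 Xist reads), none passed, with adjusted p-values of 0.0622 to 0.0872 for Mcm3, Cdc6 and Pcna. Their log2 fold changes were then 0.94, 1.59 and 0.66. Of the 13 libraries only N2 of ASC1 (4 Y and 65 Xist reads) belonged to castrated males. The rest were controls, which enter this comparison only through the shared fit. Orc6, of the origin recognition complex, was also higher in ASC2 (1.06, adjusted p = 0.00630), and of 7 macrophage markers 5 were higher (1371 to 6605 against 623 to 932 CPM), whose part was not tested. Cd79a and Cd34 were higher as well, and mural Acta2 and mammary Krt8 were lower.

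Between ASC2 and ASC1 of controls, which compares the DPP4+ with the DPP4- cells without surgery, few genes passed. In control males only Mcm6 passed, as lower in ASC2 (12.2% of all genes tested passed, and 5.30% as lower). It had 14.8, 55.6 and 96.0 CPM in ASC2 and 66.0, 107 and 158 CPM in ASC1 (-0.91, standard error 0.31, adjusted p = 0.0392), with overlap. Without the 13 libraries with reads of both sexes its value was -1.16 and it no longer passed (adjusted p = 0.0731), and Cdk2 passed as higher. Of 7 macrophage markers 3 were lower in the same comparison (719 to 2000 against 566 to 6476 CPM). The median over the 47 genes was -0.11.

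In control females none passed (edgeR; 6.11% of all genes tested did), none had an unadjusted p below 0.05, and DESeq2 called none. The highest log2 fold change was 0.56 for Cenpf (standard error 0.38) and the lowest was -0.36. Without the control libraries that went against their label, which left 3 ASC1 and 2 ASC2 libraries, Cenpe, Aurka and Mcm2 passed as lower in ASC2.

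Between libraries labelled control male and control female, no gene passed in ASC1 or in ASC2 (edgeR; 0.289% and 6.50% of all genes tested did, and DESeq2 called no member in either). In ASC1, 44 of 47 values were above 0, that is, higher under the male label, with a median of 0.44, and 9 had an unadjusted p below 0.05, led by Cenpf (1.09, standard error 0.38, adjusted p = 0.315) and Stmn1 (0.61, 0.23, 0.405). In ASC2, 35 were above 0, with a median of 0.18, and 4 had an unadjusted p below 0.05. Over all 12464 genes tested, 6397 values were above 0 in ASC1 and 6193 in ASC2. Without the control libraries that went against their label, 5 genes were higher under the male label in ASC2: Cenpe, Kif20a, Mcm3, Top2a and Aurka. Their log2 fold changes were 1.53 to 2.93, from 4 male and 2 female libraries. In ASC1 none passed without them either. Sums of the 47 genes were then 3392 to 3796 CPM in the male libraries left (B2 to D2). The female ones left had 2191 CPM in A4 and 5104 and 5284 CPM in E4 and F4. Those left out had 4020 to 4491 CPM under the male label and 1855 to 2256 CPM under the female label. Their part in the 44 values above 0 was not tested. 

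Rrm1 had the highest mean CPM of the 47 genes over all libraries, 216 CPM, a scale that is not corrected for gene length. Its lowest, median and highest values were 215, 229 and 279.002 CPM in control male ASC1 and 201, 261 and 421 CPM in control male ASC2. In castrated males they were 155, 179 and 229 CPM in ASC1 and 103, 306 and 334 CPM in ASC2. Control female ASC2 had 109, 250 and 331 CPM, and ovariectomized female ASC2 had 138, 225 and 325 CPM. Control female ASC1 had 78.7, 139 and 320 CPM. Neighbouring groups in this order overlapped, and ovariectomized ASC1, at 18.6 to 74.3 CPM, lay below all of them. Mcm5 had medians of 175 and 123 CPM in control male ASC1 and ASC2, 97.1 and 202 CPM in castrated males, 79.4 and 155 CPM in control females, and 12.4 and 112 CPM in ovariectomized females. Stmn1, a gene of cytoskeletal turnover as well as of mitosis, had medians of 183 and 171 CPM in control males, 142 and 191 CPM in castrated males, 108 and 162 CPM in control females, and 6.86 and 149 CPM in ovariectomized females.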

How the data were processed

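Per the study's methods, the authors prepared Smart-seq3 libraries, trimmed adapters with NGmerge, aligned reads with STAR 2.7.10a to GRCm39 for quality control, quantified them with Salmon 1.9.0 on Gencode transcripts, and removed libraries with few detected genes. The deposited values are estimated counts per gene, not normalized, with reads with and without UMIs together. Of the values above 0, 15.0% were not whole, and all were rounded. Salmon divides reads between similar transcripts, so counts of genes with near-identical copies are uncertain.

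Counts were tested with edgeR 4.0.16 in R 4.3.3 (TMM, glmQLFit, glmQLFTest) with 1 coefficient for each of 8 groups, over the 12464 genes that reached 5 reads in over 3 of 58 libraries (biological coefficient of variation 35.6%), and adjusted by Benjamini-Hochberg over all of them. Standard errors were derived from the fold change and its F statistic. The 47 genes and all lists were chosen with earlier results of these data known. Members with levels by group are those past an adjusted p of 0.05, or the 8 with the smallest p where more passed, the 6 with the highest mean CPM, and up to 5 other cell cycle genes per comparison. Counting intervals are exact binomial at 95%. PCR reads are not independent molecules, so intervals and floors cover counting error only.

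The edgeR script was run on simulated counts with known fold changes. Far fewer genes changed in them than passed in ovariectomized ASC1, so the run does not cover a shift of that extent. No pair of libraries of a group agreed within sampling noise (lowest chi-square per gene 1.53). The letters in library names were not used to pair libraries. Symbols and promoters come from GRCm38 tables, matched by identifier. Alternatives were RLE size factors, no count filter, DESeq2 1.42.0, only the groups compared, a replicate block, and libraries left out.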

Additional observations from a re-analysis of the deposited data

Results flagged for a closer look

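Of 154 groups of values looked at (summed levels, named members and 2 CDK inhibitors, by group), 12 held a library whose gap to the others was large for the group's range, where chance gives about 1 in 20. Castrated male ASC2 library K1 accounted for 5. Its sum over the 47 genes was 1376 CPM against 3740 to 5419 CPM in the other 7 libraries, its mitosis genes summed to 239 CPM against 979 to 1597 CPM, Cdk1 had 29.0 CPM against 130 to 214 CPM and Top2a 18.9 CPM against 147 to 193 CPM. In the same library Cdkn1a, which encodes the CDK inhibitor p21, was the highest of its group, with 1104 CPM against 182 to 294 CPM. The ASC markers Dcn and Cd34 were also highest in K1, with 4852 CPM against 1435 to 3260 CPM and 1055 CPM against 335 to 634 CPM. Col1a1, at 1123 CPM, lay within the range of the others (1016 to 2454 CPM). K1 had 730554 counts and 13295 genes with a read, within the range of its group. The relation between these values was not tested.

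Castrated male ASC1 library J2 was apart in 3 genes: Mcm3 had 135 CPM against 60.2 to 95.1 CPM, Rrm1 229 CPM against 155 to 188 CPM, and Ccne1 11.5 CPM against 22.9 to 30.5 CPM. The replication genes of control male ASC1 library E2 summed to 2024 CPM against 1594 to 1717 CPM. Aurka had 188 CPM in control female ASC1 library F4 against 36.7 to 105 CPM, Rrm1 had 421 CPM in control male ASC2 library A1 against 201 to 299 CPM, and Cdkn1b had 117 CPM in control female ASC1 library D4 against 10.02 to 46.0 CPM.

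The ovariectomy effect differed between ASC2 and ASC1 for 42 of the 47 genes (edgeR's contrast of both effects, adjusted p below 0.05). Of the 8 with the smallest p, the fitted difference on the log2 scale was 6.31 for Tpx2, 5.81 for Kif20a, 3.73 for Stmn1, 9.33 for Ccnb1, 8.76 for Aurka, 4.34 for Top2a, 5.43 for Cdk1 and 6.47 for Ube2c. For Ccnb1 and Aurka, without a read in ovariectomized ASC1, these values depend on the prior count of the fit and are no bound. Leaving out library L4, N4 or P4 gave 35, 42 and 39 genes.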

How the results depend on the processing

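The 3 comparisons with ovariectomized ASC1 kept their direction and stayed within 1.5 times their count of genes under every alternative run. Ovariectomy in ASC1 gave 38 to 46 genes, 34 of them called in all 11 fits, and with 1 of the 3 libraries left out in turn 38 to 43. ASC2 against ASC1 in ovariectomized females gave 38 to 43 with 1 library left out, and the difference of the ovariectomy effects 35 to 42. Ovariectomy in ASC2 and male against female control in ASC1 gave 0 in each fit run. Counts that moved by over 1.5 times were all small. With only the groups compared, castration in ASC1 gave 3, castration in ASC2 0, the castration effect in ASC2 minus that in ASC1 4, ASC2 against ASC1 in castrated males 6 and in control males 2. Without a count filter these last 3 gave 2, 5 and 2. Without the 19 control libraries against their label, castration in ASC2 gave 4, male against female control in ASC2 5, ASC2 against ASC1 in control males 2 and in control females 3, and the difference of the castration effects 1. Without libraries with reads of both sexes, ASC2 against ASC1 in castrated males gave 0. Without castrated male ASC2 library K1 that comparison gave 9 and castration in ASC2 3, while the difference of the castration effects stayed at 0. Without control female ASC2 library E3, the difference of the ovariectomy effects gave 41 and the other comparisons with that group 0. The cause of these moves was not tested. The alternatives that leave out K1, E3 or the 19 control libraries were chosen after seeing the data.

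Of 307 refits of single named genes under alternatives, 301 stayed past the threshold and 6 did not, and no direction changed. The 6 fell on the calls outside the comparisons with ovariectomized ASC1. They were Cdt1 and Ccne1 for castration in ASC2, and for ASC2 against ASC1 Mcm3, Cdc6 and Pcna in castrated and Mcm6 in control males. In those comparisons no gene was called in every fit. Scaling by RLE size factors or DESeq2 moved the median of all genes in ovariectomized ASC1 from -0.34 to -0.28 and -0.26, and all 47 genes stayed below 0. Same-lettered libraries did not deviate together in every pair (correlations from -0.21 to 0.33), and no label says what a letter marks, so letters were taken as names only. The nearest to a pairing was in control males between ASC1 and ASC2, where 4 of 7 correlations were over 0.1 and 4 of 7 libraries correlated best with their own letter, which is a hint from the data and not from the design. A fit with the letter as a replicate block gave 5 genes in ASC2 against ASC1 of control males, 4 in castrated males and 36 in ovariectomized females, and 0 in ASC2 against ASC1 of control females and in both comparisons of male with female controls. Treated and control groups share no letter, so no such fit could be made for castration or ovariectomy. In the 3 ovariectomized ASC1 libraries together 605 reads fell on the 47 genes, and a count of 0 there allows a level of up to 2.39 CPM (counting error only).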

Other observations

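Besides the splits given for control females, the summed levels of the 47 genes lay apart within 2 further groups, by a division that no label names. In ovariectomized female ASC2 the sums were 2271, 2230, 2497 and 2339 CPM in I3, J3, K3 and L3, and 3964, 4408, 4628 and 4788 CPM in M3, N3, O3 and P3. The total counts of the first 4 were 595558 to 1118866 and of the last 4 106562 to 875272. Col1a1 split with the sums, at 4339 to 5849 CPM in the first 4 and 1490 to 2892 CPM in the last 4, while Dcn overlapped. In castrated male ASC1 the sums were 4164 and 4104 CPM in I2 and J2, and 2654, 2601, 2579, 2489, 2580 and 2679 CPM in K2 to P2. Cdkn1a was at 145 and 143 CPM in I2 and J2 and between 263 and 362 CPM in the other 6. Genes of the sort markers split as well, with Cd34 at 160 and 185 CPM in I2 and J2 against 24.0 to 74.3 CPM. Dpp4 had 7.18 and 1.28 CPM there against 16.0 to 47.3 CPM. The relation of these genes to the sums was not tested.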
